A study of Mus musculus with 2 samples.

Results

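Ligands of the transforming growth factor beta superfamily were measured in embryonic mouse heart: 6 bone morphogenetic protein (BMP) genes, Bmp2, Bmp4, Bmp5, Bmp6, Bmp7 and Bmp10, and the 3 TGF-beta genes, Tgfb1, Tgfb2 and Tgfb3. They were chosen by name, as the gene rows whose Ensembl identifier, version removed, carries one of these symbols in the GENCODE M21 annotation. All 9 had 1 row in each gene table, out of 43346 Ensembl genes, of which 21461 were nuclear protein-coding genes. The rule uses no measured value of these libraries, although earlier results of these data were known when the names were chosen.

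The samples were whole heart tissue of B6NCrl mouse embryos at day 12.5 (E12.5), male and female embryos pooled and labelled healthy. There were 2 libraries, labelled biological replicates 1 and 2, each made from 10 ng of total RNA longer than 200 nt with added spike-in RNA. They form a single group with no treatment, mutant or other stage, so no difference between conditions could be tested and no p-value is given. Errors are SDs over these 2 libraries and describe only the spread between them. In whole tissue, fewer cells of a type and less RNA per cell cannot be told apart.

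BMPs and TGF-betas are secreted as dimers cut from larger precursors, and they bind pairs of type I and type II serine/threonine kinase receptors. BMP receptors phosphorylate SMAD1, SMAD5 and SMAD9, and TGF-beta receptors phosphorylate mainly SMAD2 and SMAD3. TGF-betas leave the cell in a latent complex and must be released from it before they signal. In the developing heart, ligands of both classes are known from work on the formation of the valve cushions, in which endocardial cells become mesenchyme, and Bmp10 is known for its role in the growth of the trabeculae, the inner muscle ridges of the ventricle.

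Since the ligands are related in sequence, it was first checked whether their reads could be confused. The leading transcripts of the 9 ligands (the transcript with the most reads) were compared in all 36 pairs, and the longest run of identical bases within coding sequence was 25 bases, shared by Bmp6 and Bmp7. The median over pairs was 11 bases. Over whole transcripts the longest run was 36 bases, a CA repeat outside the coding sequence of Bmp4 and Tgfb2. The stretch around that run of Bmp6 and Bmp7, and its counterpart in Bmp5 of the same subfamily, is given as 78 coding bases of each gene, 5′ to 3′ on the coding strand (GRCm38, GENCODE M21 transcripts), with the 22 bases that all 3 genes share in capitals. The windows lie at chr9:75873292-75873369 (Bmp5, plus strand), chr13:38485776-38485853 (Bmp6, plus strand) and chr2:172879409-172879486 (Bmp7, minus strand).
Bmp5 coding window: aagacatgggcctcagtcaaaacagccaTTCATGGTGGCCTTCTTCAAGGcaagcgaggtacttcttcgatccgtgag
Bmp6 coding window: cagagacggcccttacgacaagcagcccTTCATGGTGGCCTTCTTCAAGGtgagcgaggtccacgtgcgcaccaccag
Bmp7 coding window: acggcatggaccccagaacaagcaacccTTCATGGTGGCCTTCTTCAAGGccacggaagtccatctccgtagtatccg
Across the window, Bmp5 and Bmp6 had the same base at 55 of 78 positions (70.5%), and both Bmp5 with Bmp7 and Bmp6 with Bmp7 at 54 of 78 (69.2%). The deposited posterior SD of the gene's read count, which is the uncertainty left by reads that fit several genes, was 0 reads in both libraries for 7 ligands. For Bmp5 it was 2.43 and 4.26 reads, and for Tgfb3 0.74 and 0.86 reads, in replicates 1 and 2. A gene overlapping each of these ligands on the opposite strand had posterior SDs of like size. These were 2.44 and 4.34 reads for Gm26903 at Bmp5, and 0.74 and 0.86 reads for Gm37804 at Tgfb3. Which genes shared the reads was not tested.

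The second set of sequences marks the place where the 2 protein-coding transcripts of Tgfb2 differ inside the coding sequence. Tgfb2-206 holds an exon of 84 bases (28 codons, 56.0% G or C) at chr1:186690721-186690804 on the minus strand (GRCm38), which Tgfb2-201 skips. The exon is in capitals between 20 flanking bases on each side, and the line for Tgfb2-201 gives the same flanks joined.
Tgfb2-206: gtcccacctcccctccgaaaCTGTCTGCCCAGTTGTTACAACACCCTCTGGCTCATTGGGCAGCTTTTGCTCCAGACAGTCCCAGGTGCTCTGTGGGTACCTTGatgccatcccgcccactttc
Tgfb2-201: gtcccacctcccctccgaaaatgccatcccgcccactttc
The exon keeps the reading frame, so the coding sequence was 1326 bases in Tgfb2-206 and 1242 bases in Tgfb2-201.

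Gene reads came to 33480066 in replicate 1 and 30665239 in replicate 2, so 3 reads stand for 0.0896 and 0.0978 CPM (gene reads scaled to an equal library total). Levels are given in TPM, each transcript as a share of all transcripts, corrected for transcript length, so that genes can be compared. All 6 markers each of heart muscle, endocardium and endothelium, cushion mesenchyme and epicardium reached 1 TPM in replicate 1 and in replicate 2, for example Actc1, a sarcomeric actin, at 9860 and 9751 TPM in replicates 1 and 2. Of 6 outflow smooth muscle markers, 4 did so, 1 reached it in replicate 2 only and 1 in neither. Among nuclear protein-coding genes, 57.5% reached 1 TPM in each library. Markers of other cells were also found: 7 of 8 hepatocyte markers passed 1 TPM in each library and all 8 were higher in replicate 1 (summed level 241 and 67.9 TPM in replicates 1 and 2). Lung and foregut markers summed to 4.10 and 7.82 TPM, with Sftpc at 0 in replicate 1, and blood cell markers to 32606 and 29319 TPM. The summed level of the 9 ligands was 199.9 TPM in replicate 1 and 208.4 TPM in replicate 2. The part of these other cells in the ligand levels was not tested.

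All 9 ligands reached 1 TPM in each of the 2 libraries, the level called detected here, against 57.5% of nuclear protein-coding genes. At 5 TPM, 7 of 9 passed, against 46.6% of these genes, and at 10 TPM 5 of 9, against 38.1%. Their levels spanned 18.3-fold ± 3.62 (SD, n = 2), with Tgfb2 at the top and Tgfb1 at the bottom. The median of the 9 mean levels was 19.8 TPM, close to the 18.9 TPM median of the 12344 detected coding genes and above the 3.64 TPM median of all coding genes. As a group the ligands were therefore of middling abundance among detected genes. In a descending order of levels, 6 of the 8 neighbouring pairs had values that did not overlap between the 2 libraries, and so did 34 of all 36 pairs. Among pairs of detected coding genes 96.8% did not overlap, so the separation of the ligands was near that background.

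**Figure D1:**
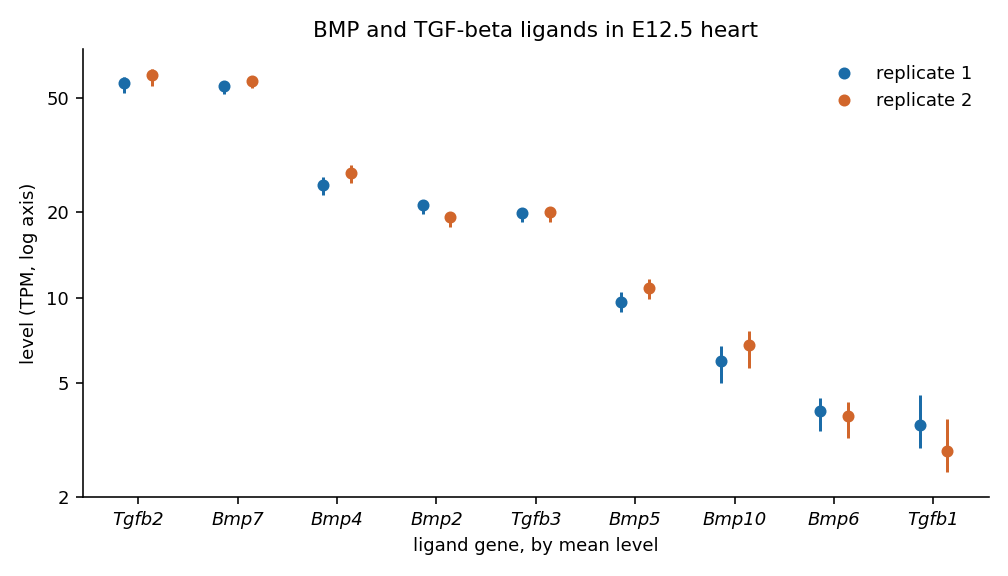
Level of each ligand gene in TPM (log axis) in replicate 1 (blue) and replicate 2 (orange), genes ordered by mean level. Points are deposited TPM values and bars the deposited credible intervals of each library, so Tgfb2 and Bmp7 stand together above 50 TPM and Bmp6 and Tgfb1 lie at or near 4 TPM and below.

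Of the TGF-beta genes, Tgfb2, whose product is the TGF-beta most closely tied to valve and septum formation in the mouse, was at 56.3 TPM in replicate 1 and 60.2 TPM in replicate 2 (58.2 ± 2.79, SD, n = 2). These levels rested on 4096 and 3983 reads, and 80.4% of detected coding genes were lower. The gene (ENSMUSG00000039239, chr1:186622792-186705989, minus strand, mm10) had deposited credible intervals of 52.0 to 59.3 and 55.2 to 63.2 TPM. Tgfb2 alone made up 71.6% ± 1.33 of the summed TGF-beta level, with all annotated transcripts counted.

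Tgfb3, which encodes the third mammalian TGF-beta (ENSMUSG00000021253, chr12:86056745-86079041, minus strand), was at 19.8 and 19.9 TPM in replicates 1 and 2 (19.8 ± 0.0849). Its values in the libraries were the closest of the 9 ligands. With all annotated transcripts counted, Tgfb3 contributed 24.4% ± 0.613 of the summed TGF-beta level, and Tgfb2 was 2.94-fold ± 0.128 higher. On protein-coding transcripts alone, Tgfb2 was closer to Tgfb3, at 35.9 and 37.3 TPM against 19.8 and 19.9 TPM in replicates 1 and 2.

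Tgfb1, whose product is the TGF-beta best known from immune regulation and fibrosis, had the lowest level of the 9 ligands. It was at 3.58 TPM in replicate 1 and 2.89 TPM in replicate 2 (3.24 ± 0.488), from 146 and 121 reads. The gene (ENSMUSG00000002603, chr7:25687002-25705077, plus strand) was still above 11.5% of detected coding genes. Tgfb1 made up 3.99% ± 0.718 of the summed TGF-beta level, with all annotated transcripts counted.

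Of the BMP genes, Bmp7 was the most abundant, at 54.9 TPM in replicate 1 and 57.5 TPM in replicate 2 (56.2 ± 1.88), from 4264 and 4136 reads. BMP7 belongs to the BMP5/6/7 subfamily and is also known for its part in kidney and eye development. The gene (ENSMUSG00000008999, chr2:172868012-172940321, minus strand) held 45.7% ± 0.183 of the summed BMP level. Tgfb2 was higher than Bmp7 within each library, by 1.04-fold ± 0.0150, but their values overlapped across the libraries, so this pair was not told apart.

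Bmp5 (ENSMUSG00000032179, chr9:75775364-75900310, plus strand) and Bmp6 (ENSMUSG00000039004, chr13:38345107-38500302, plus strand) were further members of that subfamily, and Bmp7 was above them by 5.52-fold ± 0.244 and 14.3-fold ± 0.891. Bmp5, known in the mouse from the short ear mutation of skeletal growth, was at 9.64 and 10.8 TPM in replicates 1 and 2 (10.2 ± 0.792). Bmp6, whose product sets hepcidin and so iron levels in the adult, was at 4.01 and 3.85 TPM (3.93 ± 0.113), from 219 and 190 reads. The subfamily was thus unequal, and Bmp5 stood 2.60-fold ± 0.276 above Bmp6 without overlap.

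Bmp4, a regulator of outflow tract and second heart field development, and Bmp2, which acts from the muscle of the atrioventricular canal on the cushions, form the BMP2/4 subfamily. Bmp4 (ENSMUSG00000021835, chr14:46383520-46390669, minus strand) was at 24.7 TPM in replicate 1 and 27.4 TPM in replicate 2 (26.0 ± 1.90). Bmp2 (ENSMUSG00000027358, chr2:133552159-133562885, plus strand) was at 21.1 and 19.1 TPM (20.1 ± 1.41). Bmp4 was 1.30-fold ± 0.185 higher than Bmp2, by 1.17-fold in replicate 1 and 1.43-fold in replicate 2, and the 4 values did not overlap between the genes. Bmp2 and Tgfb3, next to each other in the order, were not told apart: their ratio was 1.07 in replicate 1 and 0.962 in replicate 2.

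Bmp10, the heart-enriched member of the BMP9/10 subfamily (ENSMUSG00000030046, chr6:87428994-87437677, plus strand), was at 5.98 TPM in replicate 1 and 6.80 TPM in replicate 2 (6.39 ± 0.580), from 172 and 177 reads. Bmp5 was 1.60-fold ± 0.0210 above it, and it was 1.63-fold ± 0.194 above Bmp6. Gdf2, which encodes BMP9, the other member of that subfamily, and is named here after its values were seen, was at 0.66 and 0.37 TPM, under the level called detected. The lowest ligands, Bmp6 and Tgfb1, differed by 1.23-fold ± 0.150 with no overlap of their TPM values, while their credible intervals within each library did overlap.

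Summed over genes, the 6 BMPs came to 120.3 TPM in replicate 1 and 125.4 TPM in replicate 2, and the 3 TGF-betas to 79.6 and 83.0 TPM. The ratio of the BMP sum to the TGF-beta sum was 1.51 in both libraries. By subfamily, with all annotated transcripts counted, the TGF-betas held 39.8% of the summed ligand level and BMP5/6/7 34.4% ± 0.240. BMP2/4 held 22.6% ± 0.430 and BMP10 3.13% ± 0.192. Tgfb2 and Bmp7 thus accounted for most of the sum of their own subfamilies. On protein-coding transcripts alone, described below, the TGF-betas and BMP5/6/7 changed places.

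The levels above are sums over all annotated transcripts of a gene, and the 9 ligands have 20 annotated transcripts, of which 11 are protein-coding and 18 had reads in at least 1 library. Bmp2, Bmp6, Bmp10 and Tgfb3 have 1 transcript each. For the other 5 genes, the division of reads over transcripts was examined, since a short noncoding transcript gains a large TPM from few reads. This mattered most for Tgfb2.

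Tgfb2-201, the longer coding transcript of 5116 bases, was at 22.4 TPM in replicate 1 and 26.7 TPM in replicate 2, which was 39.8% and 44.4% of the gene's TPM. Tgfb2-206, the coding transcript with the additional exon shown above, was at 13.5 and 10.6 TPM. As a share of both coding transcripts, Tgfb2-206 held 37.7% in replicate 1 and 28.3% in replicate 2 (33.0% ± 6.63, SD, n = 2). Both coding forms were therefore listed with over 700 reads in each library (Tgfb2-206 with 1082 and 763), with posterior SDs of 81.4 and 86.2 reads for Tgfb2-206. Besides the exon, the annotated starts of the 2 transcripts lie 289 bases apart and their 3′ ends differ, so the split does not rest on the exon alone, and junction reads were not analysed here.

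Retained-intron transcripts, which keep part of an intron and are not annotated as coding, made up 35.3% of Tgfb2 TPM in replicate 1 and 36.9% in replicate 2. Tgfb2-205, of 898 bases, was at 15.3 and 13.8 TPM from only 289 and 236 reads, and 740 of its bases lie within exons of the coding transcripts. Tgfb2-202, of 744 bases, was at 4.54 and 8.40 TPM, with 652 bases within coding transcripts' exons. The credible intervals of Tgfb2-202 were wide, 2.27 to 7.52 TPM in replicate 1 and 5.23 to 12.2 TPM in replicate 2. The coding transcripts of Tgfb2 held 91.2% and 91.1% of the gene's reads but 63.8% and 61.9% of its TPM.

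**Figure D2:**
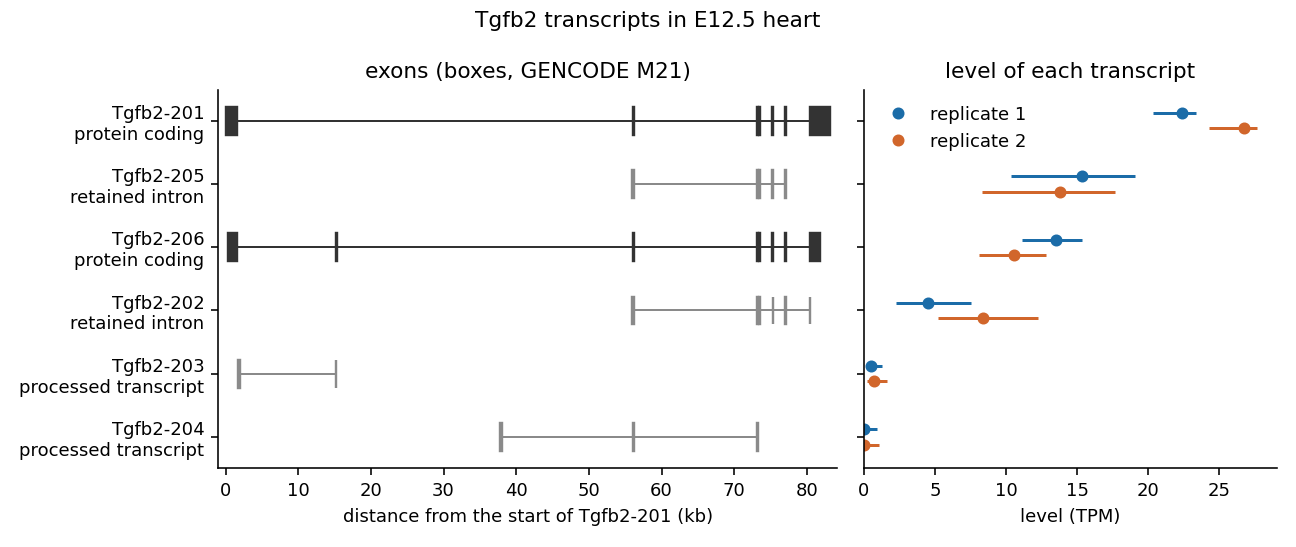
Left, exons (boxes) of the 6 annotated Tgfb2 transcripts by distance in kb from the start of Tgfb2-201, coding ones dark and others grey. Right, TPM of each transcript in replicate 1 (blue) and replicate 2 (orange) with deposited credible intervals; the retained-intron transcript Tgfb2-205, at 15.3 and 13.8 TPM, lies at the level of the coding transcript Tgfb2-206.

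Bmp7 was divided differently. Its coding transcript Bmp7-201 held 89.5% and 92.4% of the gene's TPM in replicates 1 and 2, and the retained-intron transcript Bmp7-202 the rest, at 5.75 and 4.39 TPM. Counting protein-coding transcripts only, Bmp7 was at 49.1 and 53.2 TPM (51.1 ± 2.85) and Tgfb2 at 35.9 and 37.3 TPM (36.6 ± 0.983). On that measure Bmp7 was higher than Tgfb2 by 1.40-fold ± 0.0404 without overlap. In TPM, which of the pair came first thus depended on whether the short retained-intron transcripts were counted. The places of the other 7 ligands were the same on both measures. The order of subfamilies changed as well: on coding transcripts the sum of BMP5/6/7 was above that of the TGF-betas in both libraries. The ratio of the BMP sum to the TGF-beta sum was then 1.97.

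In Bmp4, the coding transcript Bmp4-201 held 95.1% and 89.3% of TPM in replicates 1 and 2. The shorter coding transcript Bmp4-202 was listed at 0 in replicate 1 and at 1.52 TPM in replicate 2, with credible intervals of up to 2.96 and 4.44 TPM that overlap. Bmp5-201 held all reads of Bmp5. In Tgfb1, Tgfb1-201 held 77.1% of TPM in replicate 1 and 92.0% in replicate 2, and the remainder was split between a transcript annotated for nonsense-mediated decay (0.61 and 0.23 TPM) and a retained-intron transcript (0.21 and 0 TPM).

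**Figure D3:**
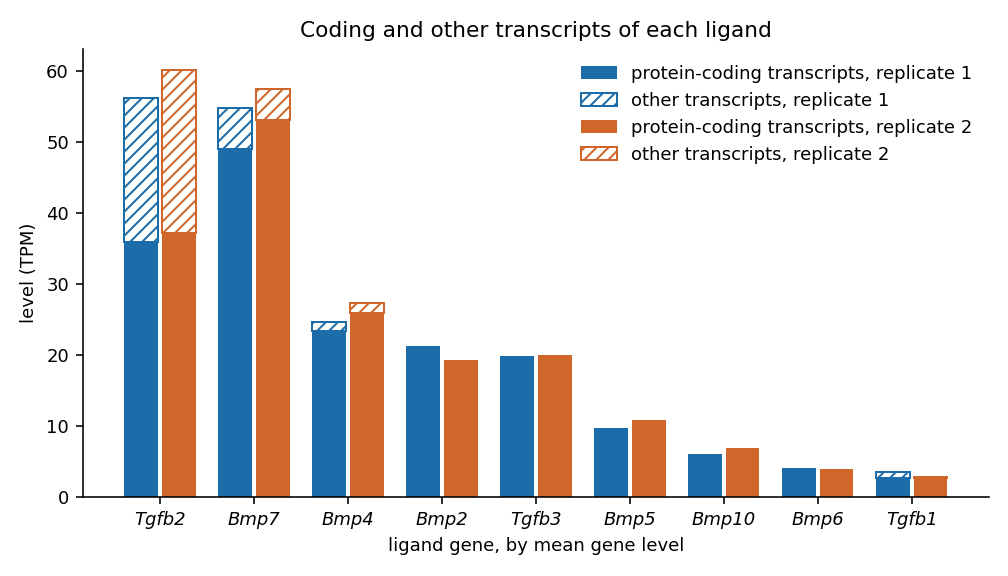
Level of each ligand in TPM, stacked as protein-coding transcripts (filled) and other transcripts (hatched), for replicate 1 (blue) and replicate 2 (orange), genes ordered by mean gene level. Tgfb2 carries the largest hatched part of the 9 genes, and the filled bars of Bmp7, at 49.1 and 53.2 TPM, stand above those of Tgfb2, at 35.9 and 37.3 TPM.

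The gene models also bear on the lowest levels. The deposited values used GENCODE M4, and 17 of the 20 ligand transcripts have the same length there and in M21. Bmp10-201 is 1317 bases in the model used and 4490 bases in M21, with a coding sequence of 1263 bases, so the model used held little beyond the coding sequence. Bmp6-201 is 2410 bases in the model used and 3593 bases in M21. The effect of the added bases on Bmp10 and Bmp6 levels was not tested, since it needs the reads.

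In CPM, which has no length correction, Bmp7 was at 127.4 and 134.9 CPM and Tgfb2 at 122.3 and 129.9 CPM in replicates 1 and 2. With all transcripts counted, Bmp7 was thus above Tgfb2 within each library, unlike in TPM, though their values overlapped across the libraries. Bmp2, at 51.5 and 46.0 CPM, and Tgfb3, at 45.8 and 45.5 CPM, were above Bmp4, at 32.9 and 35.5 CPM, the reverse of the order in TPM, and Bmp4-201 is the shortest of the 3 leading transcripts. Bmp10 was at 5.14 and 5.77 CPM and Bmp6 at 6.54 and 6.20 CPM. Bmp6 was thus above Bmp10 in reads and below it in TPM. The order of Bmp6 and Bmp10 therefore depended on the correction for the length of the gene model, which is the shorter for Bmp10.

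Genes that overlap the ligands on the genome were listed, because the sources used here do not give whether the libraries keep strand, and without strand the reads of opposite genes cannot be told apart. In M21, 11 genes overlapped 5 ligands, and 7 of them had reads. The reads were few for 5 of these: Gm15217 (3 and 0 reads in replicates 1 and 2) and Gm15222 (7 and 7) at Bmp4, Gm26903 (2.26 and 9.90) at Bmp5, Gm29491 (1 and 6) at Tgfb2, and Gm37804 (4.43 and 6.59) at Tgfb3. In M21, Gm26903 shares 1878 exonic bases with Bmp5, Gm37804 163 with Tgfb3, Gm29491 124 with Tgfb2 and Gm15217 89 with Bmp4. Gm15222 shares no exonic base with Bmp4. The effect of these overlaps on the ligand reads was not tested. The counts of Gm26903 and Gm37804 carry the posterior SDs given above, so some of their reads fitted other genes too. Ttll5, which encodes a tubulin glutamylase, runs opposite Tgfb3 and had 896 and 915 reads but shares no exonic base with it. Bmp6, with 219 and 190 reads, overlaps exons of Txndc5, a protein disulfide isomerase gene on the opposite strand with 13410 and 12261 reads, by 224 bases in M21. The posterior SD of both genes' reads was 0, and whether their exons overlap in M4 was not analysed here. Bmp2, Bmp7, Bmp10 and Tgfb1 had no overlapping gene.

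Between the libraries, 0 of 9 ligands differed by more than 0.32 on the log2(TPM + 0.1) scale in either direction, against 10.4% of the 13529 coding genes with a mean of at least 20 reads. On this scale, as replicate 1 over replicate 2, the ratio was highest for Tgfb1 at 0.30 and Bmp2 at 0.14. It was lowest for Bmp10 at -0.18, Bmp5 at -0.16 and Bmp4 at -0.15. With a threshold of 1.1-fold, 5 of 9 ligands passed, against 32.5% of the same 13529 genes. The median size of the ratio was 0.14 over the 9 ligands and 0.080 over the 8507 coding genes within their range of levels, so the ligands were not closer between libraries than genes of like level. Tgfb2 was at -0.10, Bmp7 at -0.07, Bmp6 at 0.06 and Tgfb3 at -0.01.

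The Tgfb1 ratio of 1.24 in TPM was 1.11 in CPM, at 4.36 CPM in replicate 1 and 3.95 CPM in replicate 2. Its mean effective transcript length, which follows the division of reads over transcripts, was 1726 bases in replicate 1 and 1958 bases in replicate 2. On coding transcripts alone Tgfb1 was at 2.76 and 2.66 TPM.

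**Figure D4:**
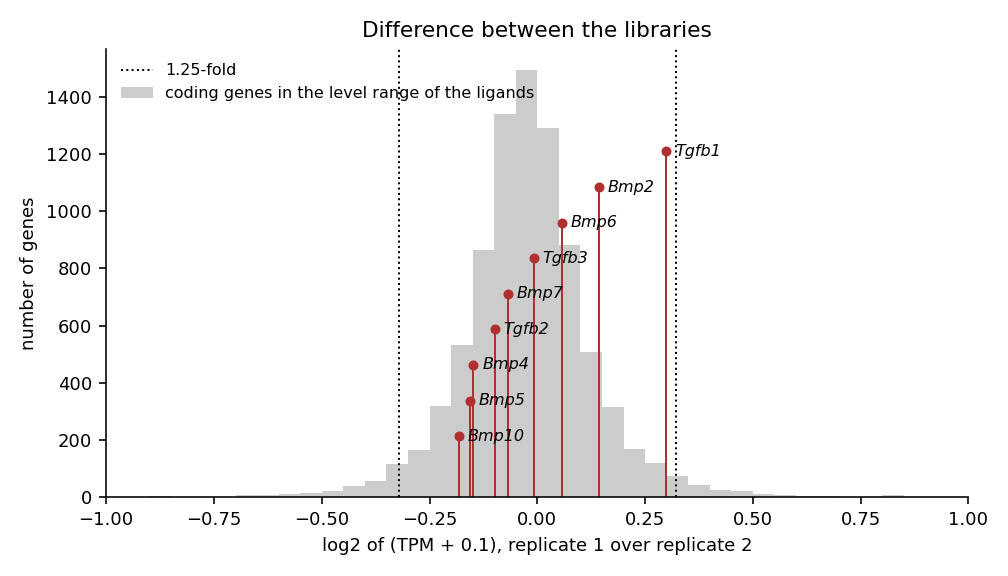
Histogram of log2(TPM + 0.1) in replicate 1 over replicate 2 for the 8507 coding genes within the ligands' range of levels (grey), with the 9 ligands as red pins whose height has no meaning; dotted lines mark a log2 ratio of 0.32 in either direction. The axis is drawn from -1 to 1, and all pins stand between the dotted lines, Tgfb1 nearest to one of them at 0.30.

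The other genes of the pathway were read from lists of known members. The median level was 19.8 TPM for the 9 BMP and TGF-beta ligands. It was 0.515 TPM for 23 other ligands of the superfamily with a row in the tables. Of these 23, 6 were detected, against 57.5% of nuclear protein-coding genes. The number detected depended on the threshold, with 10 at 0.5 TPM and 3 at 5 TPM. Of coding genes 46.6% passed 5 TPM, and their share at 0.5 TPM was not calculated. The highest of these 23 was Inhba, which encodes an activin subunit, at 16.1 and 14.2 TPM in replicates 1 and 2. Mstn, encoding myostatin, a brake on skeletal muscle growth, was at 10.7 and 10.6 TPM. Inha, an inhibin subunit gene, was at 6.15 and 7.52 TPM, Gdf6, a BMP-like factor gene of skeletal joints, at 5.41 and 4.73 TPM and Gdf11, a patterning factor gene, at 3.51 and 4.05 TPM. Gdf9, an oocyte factor gene, passed 1 TPM in 1 library only, at 0.45 and 1.06 TPM. Gdf9 was thus not detected, and the remaining detected gene was Gdf10, at 2.20 and 2.51 TPM, named here after its values were seen. The genes of this list just named were below Bmp2, Bmp4, Bmp7, Tgfb2 and Tgfb3 in both libraries. Within each library, however, Inhba was above the remaining ligands, Bmp5, Bmp10, Bmp6 and Tgfb1. Mstn and Inha were likewise above Bmp10, Bmp6 and Tgfb1, and Gdf6 above Bmp6 and Tgfb1. The values of Inha and Bmp10 overlapped across the libraries, however, so that pair was not told apart.

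Of 16 secreted antagonists, 8 were detected (4 at 5 TPM), against 57.5% of coding genes (46.6% at 5 TPM). The median of the 16 was 1.18 TPM and their sum 136.8 and 135.2 TPM in replicates 1 and 2. Most of that sum was Twsg1, which encodes twisted gastrulation, a BMP binding protein that can also promote signalling, at 83.8 and 84.8 TPM, above every one of the 9 ligands. Fstl3, a follistatin-like activin inhibitor gene, was at 17.9 and 17.2 TPM. Bmper, encoding a crossveinless-like BMP modulator, was at 9.78 and 9.82 TPM, Nbl1, a DAN family antagonist gene, at 8.23 and 8.62 TPM and Fst, encoding follistatin, at 5.14 and 4.41 TPM. Nog, encoding the BMP antagonist noggin, was at 1.38 and 0.88 TPM and Sost, encoding sclerostin, at 0.62 and 1.26 TPM, so each passed 1 TPM in 1 library only.

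Genes for the processing and latency of the ligands were detected for 14 of 16, against 57.5% of coding genes, with a median of 15.2 TPM. Emilin1, whose product restrains the processing of pro-TGF-beta, was at 154.7 and 147.6 TPM in replicates 1 and 2, and the fibrillin genes Fbn2 and Fbn1 were at 61.7 and 69.7 TPM and at 31.6 and 35.8 TPM. Of the latent TGF-beta binding proteins, Ltbp1 was at 48.2 and 48.0 TPM and Ltbp4 at 43.7 and 45.4 TPM, so each was above Tgfb3 in both libraries. The 9 genes for the release of latent TGF-beta had a median of 82.4 TPM, the highest of the 7 lists beyond the ligands. Of the 9, 8 were detected, against 57.5% of coding genes. They were led by Itgb1, the common beta 1 integrin subunit, at 390.2 and 386.1 TPM. Mmp14 was at 99.6 and 98.4 TPM, Thbs1 (thrombospondin 1) at 90.1 and 95.5 TPM, Mmp2 at 83.4 and 85.0 TPM and Itgav at 77.4 and 87.4 TPM. The lowest of the 9 were Itgb8, at 4.78 and 5.58 TPM, and Itgb6, at 0.12 and 0.14 TPM, both named after their values were seen. Many of these proteins also have roles outside TGF-beta release.

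Receptors and coreceptors were detected for 15 of 16 genes, against 57.5% of coding genes, with a median of 11.0 TPM. Eng, encoding endoglin, an endothelial coreceptor for BMP9, BMP10 and TGF-beta, was highest at 129.8 and 137.2 TPM in replicates 1 and 2. The type I receptor genes Bmpr1a, at 43.9 and 46.9 TPM, and Tgfbr1, at 44.6 and 42.0 TPM, were at overlapping levels. The coreceptor gene Tgfbr3, encoding betaglycan, which presents TGF-beta 2 to its receptors, was at 31.2 and 31.1 TPM, and Tgfbr2, the type II TGF-beta receptor gene, at 20.0 and 20.3 TPM. Bmp5, Bmp6, Bmp10, Tgfb1 and Tgfb3 were below each of these 5 genes, the highest of the list, in both libraries.

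The median of the 8 SMAD genes, all detected against 57.5% of coding genes, was 17.5 TPM. Smad6, an inhibitor of the BMP branch, was highest at 45.9 and 51.1 TPM in replicates 1 and 2. Smad2, of the TGF-beta branch, was at 42.4 and 41.3 TPM and Smad3 at 15.4 and 13.8 TPM. Smad1 and Smad5, of the BMP branch, were at 22.8 and 23.1 TPM and at 19.8 and 20.9 TPM. Of 20 genes known as targets, 19 were detected, against 57.5% of coding genes, with a median of 27.5 TPM. They were led by the BMP-responsive Id2, at 344.2 and 348.5 TPM, and Id3, at 262.0 and 261.4 TPM, which encode inhibitors of helix-loop-helix factors. The matrix genes Postn and Tgfbi were at 192.6 and 194.5 TPM and at 87.2 and 87.0 TPM, and the heart transcription factor gene Tbx20 at 92.8 and 87.5 TPM. The target genes respond to other signals too, and 1 group of samples gives no measure of ligand activity.

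**Figure D5:**
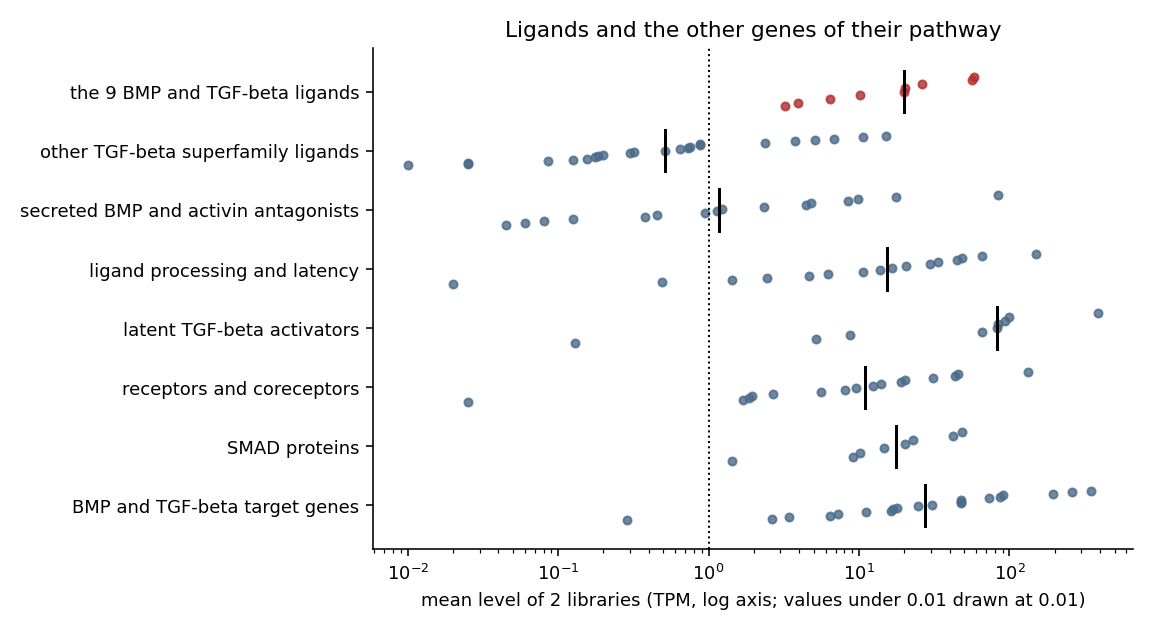
Mean level of 2 libraries in TPM (log axis) for the 9 ligands (red) and each list of other pathway genes (blue), 1 point per gene, with black bars for list medians and a dotted line at 1 TPM. All 9 ligands lie right of the line, with a median of 19.8 TPM. Of 23 other superfamily ligands, 6 reached 1 TPM in each library, against 57.5% of coding genes.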

How the data were processed

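Per the labels' protocols, a mirVana kit was used for extraction, and a SMARTer low-input kit manual is cited. Reads were aligned to mm10 and quantified on GENCODE M4, per the notes deposited with the samples. Aligner, quantifier, strand setting and the level of the credible intervals are not stated in the labels or headers. The deposited expected counts estimate the reads of each gene or transcript. Deposited TPM is a share of all features, spike-ins included, after division by effective length. The deposited FPKM values are scaled by length and library reads. Percent values deposited per transcript are its portion of the gene's TPM, per the file headers. The tables had 69691 rows, and total expected counts were 34751234 and 31847875.

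Names, types, coordinates and transcript sequences came from GENCODE M21 (GRCm38); 169 of 170 listed symbols matched a row, Gdf1 did not. Protein sequences were not used here. Genes at 1 TPM or more in both libraries were called detected. Genes were told apart when their values over both libraries did not overlap. Folds are means of within-library ratios. Between libraries, log2(TPM + 0.1) was compared at a mean of at least 20 reads, which understates changes of low genes. The threshold between libraries was 0.32 on this scale. Floors of 3 reads cover counting error only. Rounded expected counts gave edgeR 4.0.16 TMM and DESeq2 1.42.0 size factors, used only as other scalings; R 4.3.3, Python 3.11.15, pandas 2.3.3 and matplotlib 3.10.9 were used. Only the log2 ratio between libraries, its threshold and the count of pairs told apart were tested on simulated data.

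The ligands and lists were chosen with earlier results of these data known. The text names all 9 ligands, the 5 highest genes of each pathway list, those at 1 TPM in 1 library only, at most 3 markers a list and each overlapping gene with a read. Gdf2, Gdf10, Itgb6 and Itgb8 were named in addition, after their values were seen.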

Additional observations from a re-analysis of the deposited data

How the results depend on the processing

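No paired analysis was possible because the 2 libraries form 1 group, and leaving out either leaves a single library with no spread. At 5 TPM, 7 of 9 ligands passed in both libraries (46.6% of coding genes), and at 10 TPM 5 did (38.1%). With a threshold of 1.1-fold between libraries, 5 ligands passed it (32.5% of coding genes tested), against 0 (10.4%) at the wider threshold used above. The ratio of the BMP sum to the TGF-beta sum, 1.51 in TPM, was 1.51 in FPKM and with posterior means, 1.44 in counts, 1.57 without Tgfb1, 1.43 without Bmp10 and 1.97 with protein-coding transcripts only. The protein-coding measure, the CPM measure of the difference between libraries and the other measures for counts of pairs were chosen after seeing the data. Over the alternatives run, 5 to 7 of 8 neighbours and 33 to 35 of 36 pairs were told apart. The direction of the difference between libraries held over all 8 scalings and measures for every ligand except Tgfb3, which was positive in 4 of them (log2 -0.01 to 0.03). That of Tgfb1 ranged from 0.05 to 0.31. Depth limits Tgfb1, Bmp10 and Bmp6 most, with 121 to 219 reads a library, and 2 libraries give no test between genes.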
